A study of Homo sapiens with 3 samples.

Results

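The interferon signalling and interferon-induced genes are the genes whose symbols name the interferon receptor subunits (IFNAR, IFNGR), the Janus kinases (JAK, TYK2), the STAT factors, the interferon regulatory factors (IRF), the SOCS inhibitors and the families induced by interferon (IFI, IFIT, IFITM, ISG, HERC5, HERC6, MX1, MX2, BST2, DTX3L, PARP9, PARP14, SAMD9 and XAF1). Members were picked by symbol, with earlier results of these data known. IFIH1, a sensor of double-stranded RNA, was kept out. The members came to 59 of the 18131 genes with a probe set of 1 symbol, measured by 146 probe sets. The 31 genes of the induced set were set beside the 28 genes of the signalling set, which holds receptors, kinases, STAT, IRF and SOCS genes. A further 4 genes with symbols that fit were not analysed here.

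Expression was measured in LNCaP, an established human prostate cancer line that carries the androgen receptor, on 3 Affymetrix arrays. Cells received 75 nM of HOXD-AS1 siRNA 1, of HOXD-AS1 siRNA 2 or of a negative control siRNA by lipid transfection, in medium free of phenol red, and RNA was taken at 48 h. HOXD-AS1 is a long non-coding RNA of the HOXD cluster, and the study sought genes that differed from the control with both siRNAs. Each group held 1 array, so no value has a replicate error, no difference was tested, and precision is limited by having 3 arrays. The source labels name LNCaP-Bic for siRNA 1, LNCaP-AI for siRNA 2 and LNCaP for the control, while the cell line label gives LNCaP for all, so a difference between cells of those names and a difference between siRNAs cannot be told apart. The labels give an inhibition rate of 0.23 for siRNA 1, 0.25 for siRNA 2 and 1 for the control, without the method behind it or whether it is a remaining level. The annotation held 0 probe sets for HAGLR, the current symbol of HOXD-AS1.

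Interferons are secreted proteins that cells release on sensing a virus. Type I interferons bind IFNAR1 and IFNAR2, whose kinases TYK2 and JAK1 phosphorylate STAT proteins; these join IRF9 and bind the interferon-stimulated response element (ISRE) of antiviral genes. Interferon gamma binds IFNGR1 and IFNGR2, uses JAK1 and JAK2, and acts through gamma-activated sites (GAS), while SOCS proteins and USP18 restrain these pathways. LNCaP cells are known for a weak response to interferons that has been linked to a lack of JAK1.

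The siRNA sequences are shown because each of the 3 groups received a different siRNA, while the source labels differ between the groups too. They are given as in the labels, and the capitals mark the last 2 bases.
HOXD-AS1 siRNA 1: gaaagaaggaccaaaguaaUU
HOXD-AS1 siRNA 2: gcccuuucugaccugcuuaUU
control siRNA: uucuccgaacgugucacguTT
All were 21 bases long. Of the 19 bases before the capitals, siRNA 1 had 7 that were G or C, siRNA 2 had 10 and the control had 10. The part of these sequences in any value below was not tested.

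Values are probe set intensities on a linear scale. Values were read against a floor of 26.0, the median over all probe sets and arrays, and the measured genes are those above it on 1 or more arrays. Differences are on the log2 scale, siRNA minus control, where 1 is 2-fold. Of the 59 members, 43 were measured, 22 induced and 21 signalling genes, among 11286 measured genes in all. Below the floor on all arrays, at intensities of 3.03 to 25.5, were 9 induced genes (IFI16, IFI44L, IFIT1B, IFITM5, IFITM10, MX1, MX2, PARP14 and XAF1) and 7 signalling genes (IRF4, IRF8, SOCS1, SOCS3, SOCS7, STAT4 and STAT6). The arrays were closely matched, with median intensities of 25.7 with siRNA 1, 26.1 with siRNA 2 and 26.1 in the control. Of all measured genes, 95% lay between -0.88 and 0.84 with siRNA 1 and between -0.71 and 0.72 with siRNA 2. As a guide to how well probe sets match, the differences from the control given by the 2 brightest probe sets of a gene were compared. The gap had a median of 0.14 in each library over 6263 genes. In 10% of them it was more than 0.47 with siRNA 1 or 0.43 with siRNA 2. Both probe sets were read on the same arrays, so this gap holds no error between cultures or arrays. Luminal prostate markers were present, with 6 of 6 measured at 820 to 5176 (KLK3, KLK2, TMPRSS2, HOXB13, KRT8 and KRT18), and summed to 13866 with siRNA 1, 11477 with siRNA 2 and 13165 in the control; their part in the results was not tested. Of 7 leukocyte markers only NKG7 was above the floor, at 27.1 to 27.5, and the 7 summed to 65.3 with siRNA 1, 69.0 with siRNA 2 and 69.8 in the control; PTPRC was at 3.14 on every array. Of 5 fibroblast markers 0 were above the floor, with sums of 54.6, 60.0 and 52.8 in the same order. Of 6 markers of other prostate lines, VIM (593 with siRNA 1 and 735 with siRNA 2, against 660 in the control) and KRT14 (55.9 and 55.5, against 47.8) were measured and CAV1, CD44, KRT5 and ZEB1 were below the floor.

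Nearly all induced genes lay above the control with siRNA 1, with IFIT2 and IFI44 furthest, while with siRNA 2 genes such as IFI27 lay above it and others such as HERC5 below it. With siRNA 1, 21 of 22 induced genes and 15 of 21 signalling genes were above the control, against 50.3% of all measured genes. With siRNA 2 these were 14 induced and 16 signalling genes, against 51.7% of all. Any value above 0 was counted, and with siRNA 1 IFITM3 (0.01), HERC6 (0.06), IFIT5 (0.07), DTX3L (0.08) and IFITM2 (0.09) were close to it. The other measured probe sets of DTX3L (-0.22) and IFITM2 (-0.10) were below the control with siRNA 1. Those of BST2, IFI27, IFI35, IFI44, IFIT2, IFITM1 and PARP9 were above it. The induced set had a median difference of 0.33 with siRNA 1 and 0.13 with siRNA 2, the signalling set 0.20 and 0.14, and all measured genes 0.00 and 0.01. These set medians depended on the choice of probe sets, floor and summary: over the alternatives the induced median ran from 0.31 to 0.81 with siRNA 1 and from 0.04 to 0.18 with siRNA 2, and the signalling median from 0.12 to 0.30 with siRNA 1 and from 0 to 0.42 with siRNA 2. The median of the induced set was thus 0.14 above that of the signalling set with siRNA 1 and 0.01 below it with siRNA 2, with ranges of 0.08 to 0.58 and -0.24 to 0.04 over the same alternatives. Both siRNA comparisons share the control array, so a low or high control value moves both the same way. In bulk cells a higher level per cell and more cells of high level cannot be told apart.

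**Figure D1:**
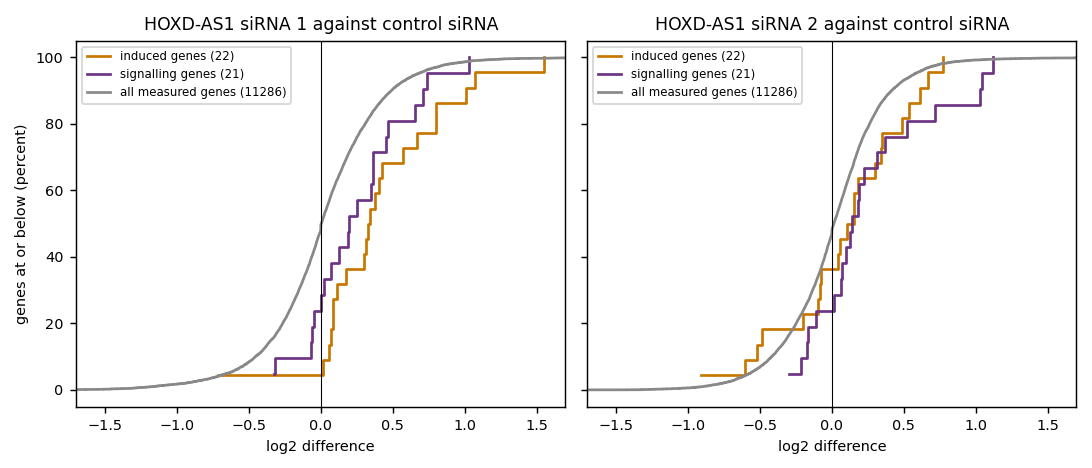
Cumulative share of genes (percent, vertical axis) at or below a log2 difference (horizontal axis), with siRNA 1 on the left and siRNA 2 on the right. Orange is the 22 induced genes, purple the 21 signalling genes and grey all 11286 measured genes. With siRNA 1 the induced curve lies to the right of grey over most of its range (median 0.33 against 0.00). The induced curve starts at -0.71 with siRNA 1 and further left, at -0.91, with siRNA 2.

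At the 2-fold threshold 4 members were higher with siRNA 1 (IFIT2, IFI44, IRF9 and SAMD9), where 1.36% of all measured genes were, and 0 were lower, against 1.76% of all; averaging the probe sets of each gene, or a floor at the 75th percentile, gave 2 members 2-fold higher. With siRNA 2, 3 members were 2-fold higher (JAK2, IRF7 and IRF9; background 0.789%) and 0 lower (0.603%). The higher count with siRNA 2 was also 2 with averaged probe sets or a floor at the 75th percentile, and 2 with only probe sets without a suffix for shared targets. At 1.5-fold, 10 of 43 members (23.3%) were higher with siRNA 1, against a background of 6.9%, and 1 was lower, IFI27L1 (2.33%, background 6.16%). With siRNA 2 there were 7 higher (16.3%, background 4.75%) and 2 lower, HERC5 and IFITM3 (4.65%, background 4.67%). The share of members on the lower side was therefore at the background with siRNA 2, while the share on the higher side was above it with both siRNAs.

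**Figure D2:**
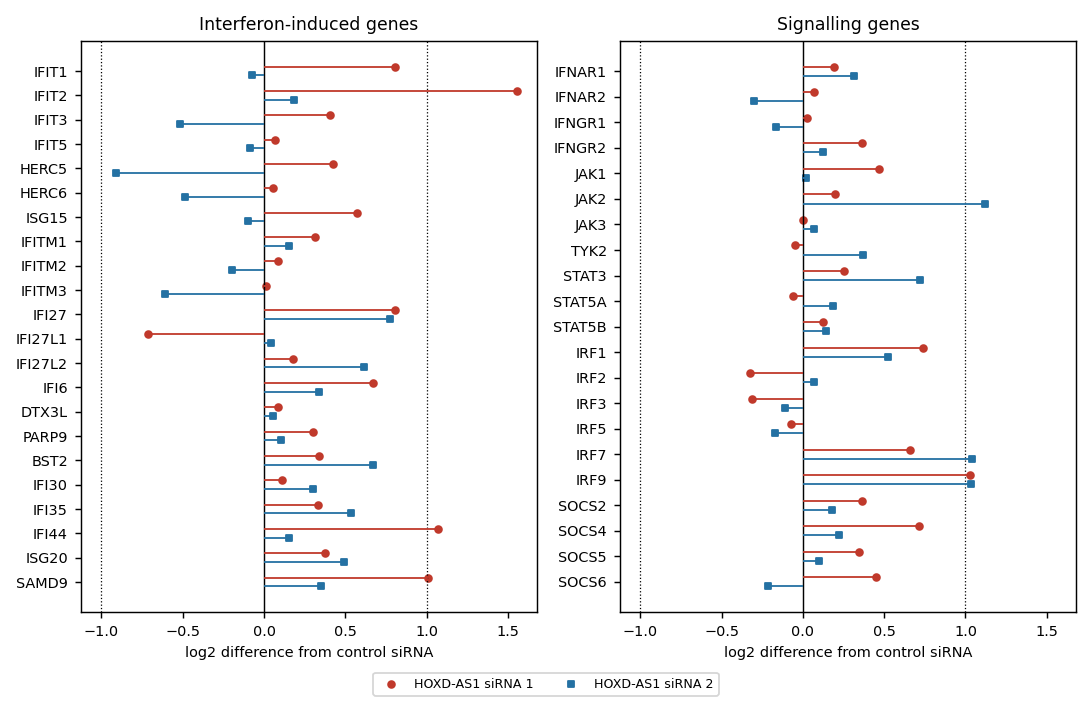
Log2 difference from the control (horizontal axis) of each measured induced gene (left) and signalling gene (right), with siRNA 1 as circles and siRNA 2 as squares. Dotted lines mark 2-fold; IFIT2 is the furthest to the right with siRNA 1 (1.55) and HERC5 the furthest to the left with siRNA 2 (-0.91).

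No listed interferon gene with a probe set was above the floor. Probe sets were present for 17 of 21 listed ligand genes, and the highest read 13.8 with siRNA 1, 14.6 with siRNA 2 and 13.2 in the control, so interferon transcripts were not detectable at this signal level.

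The receptor subunits were measured in all libraries and were at most 1.28-fold from the control with siRNA 1 and 1.25-fold with siRNA 2. IFNAR1, the low-affinity subunit of the type I receptor, read 318 with siRNA 1 and 346 with siRNA 2, against 278 in the control. Its 3 other measured probe sets differed by -0.28 to 0.01 with siRNA 1 and by -0.37 to 0.04 with siRNA 2, so its probe sets did not give 1 direction. IFNAR2, its high-affinity partner, read 175 with siRNA 1 and 135 with siRNA 2, against 166 in the control. IFNGR1, the ligand-binding subunit of the interferon gamma receptor, read 215 with siRNA 1 and 188 with siRNA 2, against 211 in the control. IFNGR2, its signalling partner, read 278 with siRNA 1 and 236 with siRNA 2, against 216 in the control. The 4 genes had differences of 0.02 to 0.36 with siRNA 1 and of -0.30 to 0.32 with siRNA 2.

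Among the Janus kinases JAK2 stood out with siRNA 2. JAK2, which acts at the interferon gamma, growth hormone and cytokine receptors, read 51.2 with siRNA 1 and 97.2 with siRNA 2, against 44.7 in the control. The siRNA 2 value was 2.18-fold higher than the control (1.12). Its 2 other measured probe sets were higher with siRNA 2 by 0.90 and by at least 1.21, the latter with a control value of 22.0, below the floor. With siRNA 1 the JAK2 difference was 0.20. JAK1, the kinase shared by type I and gamma interferon receptors, read 49.9 with siRNA 1 and 36.5 with siRNA 2, against 36.1 in the control, all close to the floor. Its difference with siRNA 1 was 0.47, and 0.34 in its other measured probe set. TYK2, the kinase of IFNAR1, read 212 with siRNA 1 and 283 with siRNA 2, against 219 in the control. JAK3, a kinase of lymphoid cytokine receptors, was above the floor only with siRNA 2, at 27.2. JAK2 thus separated the siRNA 2 library from both others, and JAK1 separated the siRNA 1 library from both others by a smaller margin.

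Of the STAT factors STAT3 differed most. STAT3, which carries signals of the interleukin-6 family, read 560 with siRNA 1 and 774 with siRNA 2, against 471 in the control, differences of 0.25 and 0.72. Its other measured probe sets were higher by 0.23 to 0.26 with siRNA 1 and by 0.46 to 0.73 with siRNA 2. STAT5A and STAT5B, which act in prolactin and growth hormone signalling, differed by -0.06 and 0.13 with siRNA 1 and by 0.19 and 0.14 with siRNA 2. The other STAT5B probe sets ran from -0.70 to 0.26 with siRNA 1, which gives no common direction.

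The interferon regulatory factors divided into 3 that were higher with both siRNAs, IRF9, IRF7 and IRF1, and 3 that were near or below the control. IRF9, the DNA-binding subunit of the complex that acts at ISREs, read 278 with siRNA 1 and 278 with siRNA 2, against 136 in the control, a difference of 1.03 in each. Its 3 other probe sets gave 0.43 to 0.78 with siRNA 1 and 0.34 to 0.75 with siRNA 2. IRF7, which drives type I interferon genes and is itself induced by interferon, read 269 with siRNA 1 and 351 with siRNA 2, against 170 in the control, or 1.58-fold and 2.06-fold higher. IRF1, a factor of the interferon gamma response, read 50.4 with siRNA 1 and 43.3 with siRNA 2, against 30.1 in the control. Its differences of 0.74 and 0.52 were matched by at least 0.65 and 0.57 in its other measured probe set, whose control value of 25.2 was below the floor. All these values lie near the floor. IRF3, which is activated directly by nucleic acid sensing, read 149 with siRNA 1 and 173 with siRNA 2, against 186 in the control. IRF2, an antagonist of IRF1, differed by -0.33 and 0.07, and IRF5 by -0.07 and -0.17. IRF1, IRF7 and IRF9, counted here as signalling genes, are known as interferon-induced genes too; moved to the induced set, a choice made after their values were seen, they gave set medians of 0.38 and 0.15 for the induced and 0.16 and 0.11 for the signalling genes with siRNA 1 and siRNA 2.

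The 4 measured SOCS genes were each above the control with siRNA 1, by 0.35 to 0.71, and lay between -0.22 and 0.22 with siRNA 2. SOCS4, an adaptor of a ubiquitin ligase, read 306 with siRNA 1 and 218 with siRNA 2, against 187 in the control, or 1.64-fold and 1.17-fold higher. SOCS2, an inhibitor of growth hormone signalling, differed by 0.37 and 0.18, SOCS5 by 0.35 and 0.10 and SOCS6 by 0.45 and -0.22. The other measured SOCS6 probe set was above the floor only with siRNA 1, at 27.4, against 22.4 with siRNA 2 and 21.6 in the control. It gives a difference of at least 0.08 with siRNA 1 and none with siRNA 2, so the size of the SOCS6 differences rests on 1 probe set. The SOCS genes that interferon is best known to induce, SOCS1 and SOCS3, were below the floor on all arrays, at most at 14.8 and 6.98.

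**Figure D3:**
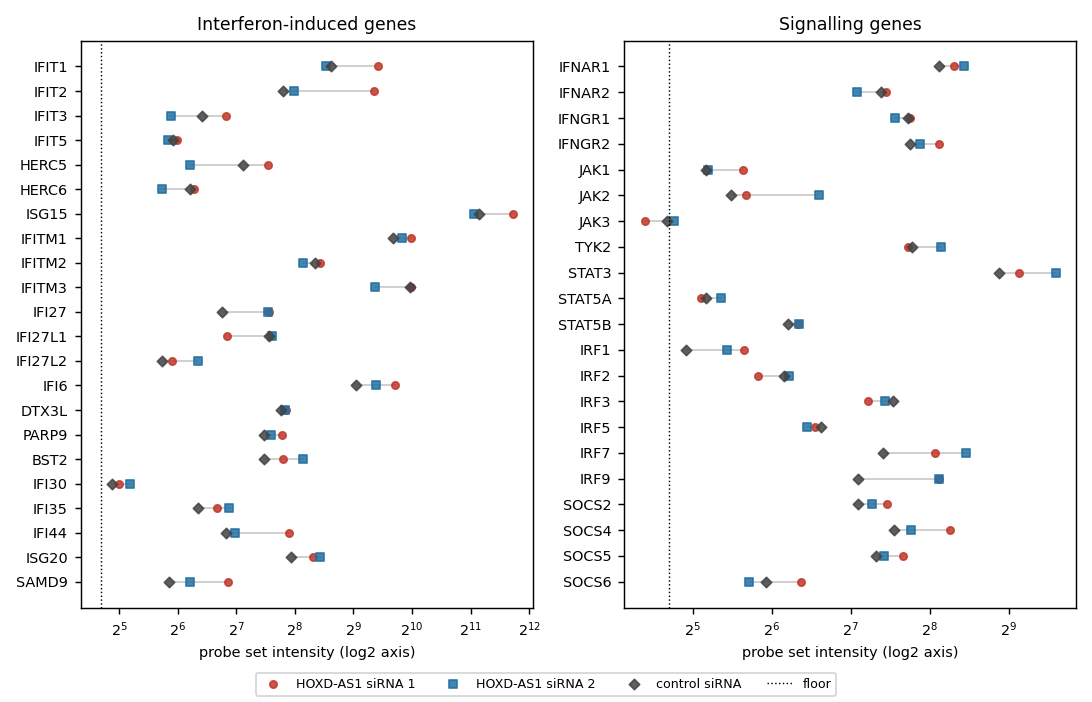
Probe set intensity (horizontal axis, log2 scale) of each measured induced gene (left) and signalling gene (right) on each array, siRNA 1 as circles, siRNA 2 as squares and the control as diamonds, with the floor dotted. The control diamond is the lowest of the 3 symbols for IRF1, IRF7 and IRF9, and the siRNA 1 circle is well to the right for IFIT1, IFIT2 and IFI44.

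The 4 measured IFIT genes were each higher with siRNA 1 than with siRNA 2, by 0.15 for IFIT5 up to 1.37 for IFIT2. IFIT proteins bind viral RNA and block its translation, and their genes lie together on chromosome 10. IFIT2 read 654 with siRNA 1 and 253 with siRNA 2, against 223 in the control, 2.94-fold and 1.14-fold higher. Its other measured probe set was above the floor only with siRNA 1, at 29.4, and read 13.9 with siRNA 2 and in the control. That probe set therefore gives a difference of at least 0.18 with siRNA 1 and none with siRNA 2. IFIT1 read 683 with siRNA 1 and 371 with siRNA 2, against 391 in the control, differences of 0.80 and -0.08. IFIT3, which binds IFIT1 and stabilises it, read 113 with siRNA 1 and 59.5 with siRNA 2, against 85.3 in the control. IFIT5 differed by 0.07 and -0.09. For all 4 genes the siRNA 1 value was the highest of the 3 arrays, and for IFIT1, IFIT3 and IFIT5 the siRNA 2 value was the lowest, by small margins for IFIT5.

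ISG15 and its ligase genes gave the same order of arrays. ISG15, a ubiquitin-like protein that is attached to other proteins, read 3361 with siRNA 1 and 2118 with siRNA 2, against 2264 in the control. HERC5, the ligase that attaches ISG15 in human cells, read 187 with siRNA 1 and 74.0 with siRNA 2, against 139 in the control; it was 1.34-fold higher with siRNA 1 and 1.88-fold lower with siRNA 2. HERC6, its relative, which acts as the ISG15 ligase in mouse, read 77.3 with siRNA 1 and 53.0 with siRNA 2, against 74.3 in the control. All 3 genes were highest with siRNA 1 and lowest with siRNA 2, and each had 1 probe set.

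The IFITM proteins restrict entry of enveloped viruses, and their genes on chromosome 11 are close copies, so probe sets may share signal between them. IFITM3 read 1012 with siRNA 1 and 658 with siRNA 2, against 1002 in the control, differences of 0.01 and -0.61. IFITM1 read 1017 with siRNA 1 and 909 with siRNA 2, against 817 in the control. IFITM2 differed by 0.09 and -0.20, and its other probe set by -0.10 and -0.22. IFITM3 was therefore the only measured IFITM gene 1.5-fold from the control, and only with siRNA 2.

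IFI27 and IFI6, small membrane proteins among the most commonly used markers of interferon exposure, were higher with both siRNAs. IFI27 read 189 with siRNA 1 and 186 with siRNA 2, against 108 in the control, 1.75-fold and 1.71-fold higher. Its other probe set showed less, 0.36 and 0.38. IFI6 read 841 with siRNA 1 and 668 with siRNA 2, against 528 in the control. The relatives of IFI27 lie beside it on chromosome 14. IFI27L1 read 115 with siRNA 1 and 195 with siRNA 2, against 189 in the control, 1.64-fold lower with siRNA 1. IFI27L2 read 60.2 with siRNA 1 and 81.4 with siRNA 2, against 53.2 in the control, above the control with both siRNAs and 1.53-fold higher with siRNA 2.

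IFI44 and SAMD9 were 2-fold higher with siRNA 1 alone. IFI44 read 238 with siRNA 1 and 126 with siRNA 2, against 113 in the control, and its other measured probe set differed by 0.80 and -0.33. SAMD9, which restricts poxviruses and cell growth, read 117 with siRNA 1 and 73.8 with siRNA 2, against 57.9 in the control. BST2, or tetherin, which holds budding virus at the cell surface, ran the other way, with 224 for siRNA 1 and 281 for siRNA 2, against 177 in the control; its 2 other measured probe sets were higher by 0.36 to 0.54 and by 0.64 to 0.65. ISG20, an exonuclease, differed by 0.38 and 0.49, IFI35 by 0.33 and 0.54, and IFI30, a lysosomal thiol reductase, by 0.11 and 0.30. PARP9 and DTX3L, partners in a ubiquitin ligase complex that share a promoter region, differed by 0.30 and 0.08 with siRNA 1 and by 0.11 and 0.06 with siRNA 2; the other measured PARP9 probe set, at 0.81 and -0.23, did not match the first, and that of DTX3L, at -0.22 and -0.08, had the opposite sign with both siRNAs. BST2, ISG20, IFI35 and IFI30 were highest with siRNA 2, so the order of the siRNA libraries was not the same throughout the induced set.

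The siRNA libraries were also set against each other, which leaves the control array out. Of the 22 induced genes, 8 (36.4%) were at least 1.5-fold higher with siRNA 1 than with siRNA 2, against a background of 6.52%. They were IFIT2, HERC5, IFIT3, IFI44, IFIT1, ISG15, SAMD9 and IFITM3, with differences of 0.62 to 1.37. In the other direction 1 induced gene, IFI27L1, was at least 1.5-fold lower (-0.76), and 4.87% of all measured genes were. Of the 21 signalling genes 1 was higher (SOCS6, 0.67) and 1 lower (JAK2, -0.92), 4.76% each. The SOCS6 value is that of the probe set used, and its other probe set was below the floor with siRNA 2. At 2-fold, IFIT2 and HERC5 were higher with siRNA 1 (background 1.56%) and 0 members were lower (0.656%). The median of this difference was 0.24 in the induced set, -0.00 in the signalling set and -0.02 over all measured genes.

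**Figure D4:**
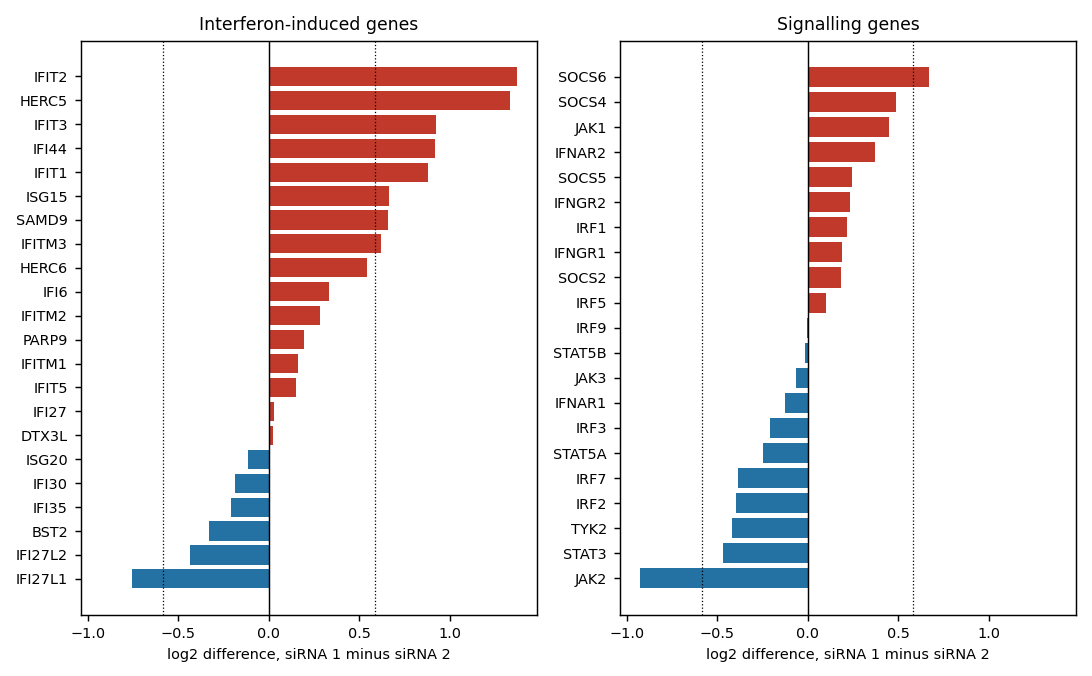
Log2 difference of siRNA 1 minus siRNA 2 (horizontal axis) for each measured induced gene (left) and signalling gene (right), sorted, with red bars higher with siRNA 1 and blue bars higher with siRNA 2. Dotted lines mark 1.5-fold; 8 induced genes and 1 signalling gene pass it on the right, and IFI27L1 and JAK2 pass it on the left.

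The sets also differed in promoter sequence. The induced set was made of families induced by interferon, which acts through ISREs, so the choice of sets made an ISRE difference likely beforehand. That difference is not a result of these arrays. RefSeq promoter windows (GRCh38.p14, 250 bases before to 50 bases after each annotated start) were available for 48 of the 59 members. They were searched on both strands for the ISRE as GAAANNGAAA and for the GAS as TTCNNNGAA, which reads the same on both strands. The measured members without a window, and so not searched, were IFIT2, IFITM2, IFNAR2, IRF2, IRF3, IRF7, SOCS2 and SOCS5. An ISRE match was found for 15 of 20 measured induced genes with a window (75%), for 0 of 15 measured signalling genes and for 4.38% of all 27305 genes. The windows of SOCS1, MX1, IFI44L and PARP14, below the floor, held matches too. A GAS match was found for 4 of 20 measured induced genes (20%), 2 of 15 measured signalling genes (13.3%) and 9.38% of all genes; ISRE and GAS matches overlapped in 22 of all 35116 windows. A match is a string of letters and not a measured binding site, and genes can have several windows.

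The stretches of 50 bases below, from 8 induced genes whose differences are given above, show how the matches look; capitals mark every ISRE match, which overlap in BST2, HERC5 and ISG15. The letters follow the strand of the gene, so TTTC on this strand is GAAA on the other. The first 6 genes were at least 1.5-fold higher with siRNA 1 than with siRNA 2, while IFI27 and BST2 were above the control with both.
IFIT1, chr10:89392487-89392536, plus strand: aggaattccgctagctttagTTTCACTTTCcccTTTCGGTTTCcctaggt
IFIT3, chr10:89327821-89327870, plus strand: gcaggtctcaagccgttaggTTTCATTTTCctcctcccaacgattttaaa
IFI44, chr1:78649751-78649800, plus strand: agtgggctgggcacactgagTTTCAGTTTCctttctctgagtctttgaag
SAMD9, chr7:93118086-93118135, minus strand: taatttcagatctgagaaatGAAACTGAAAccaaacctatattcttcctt
ISG15, chr1:1013364-1013413, plus strand: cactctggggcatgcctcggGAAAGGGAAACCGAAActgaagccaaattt
HERC5, chr4:88456974-88457023, plus strand: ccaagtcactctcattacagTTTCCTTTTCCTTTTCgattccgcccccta
IFI27, chr14:94110608-94110657, plus strand: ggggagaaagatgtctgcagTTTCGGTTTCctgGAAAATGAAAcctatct
BST2, chr19:17405731-17405780, minus strand: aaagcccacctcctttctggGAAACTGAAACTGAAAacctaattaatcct

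Over the 15 measured induced genes there were 29 distinct matches, starting between 187 and 4 bases before an annotated start, and 1 of them, chr3:122564332-122564341, lies in the windows of both DTX3L and PARP9. In the probe set used, the 15 genes were all above the control with siRNA 1, with a median of 0.41 (DTX3L was below it in its other measured probe set), and 9 of them were above it with siRNA 2, with a median of 0.11. The 5 measured induced genes with a window and no match (HERC6, IFI27L1, IFI27L2, IFI30 and IFI35) had medians of 0.11 and 0.30. The order of the medians was thus opposite between the siRNAs, over few genes and with no test.

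**Figure D5:**
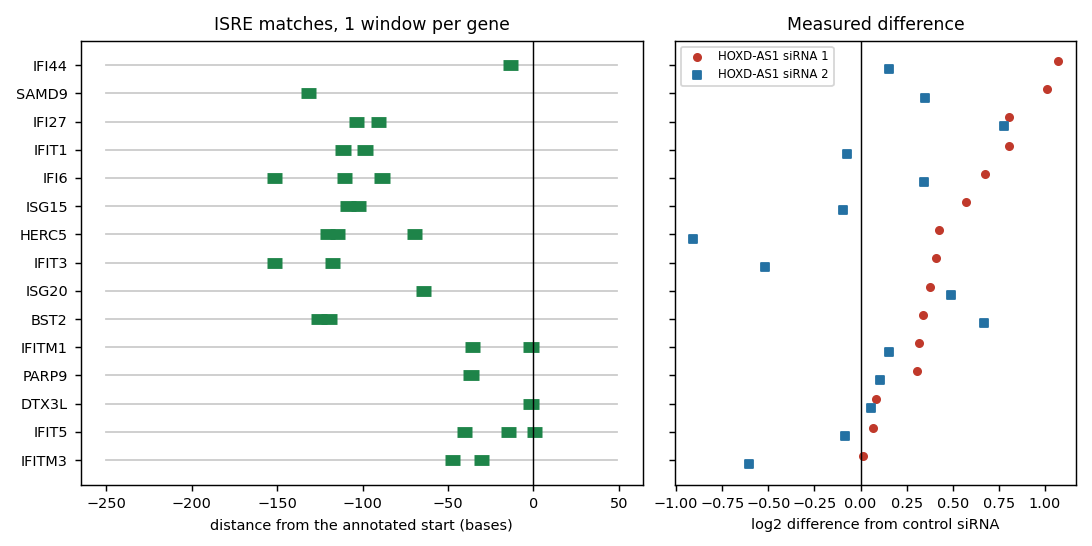
Left, ISRE matches (green) by distance in bases from the annotated start for the 15 measured induced genes that hold one, in 1 window per gene; right, the log2 difference from the control of the same genes, siRNA 1 as circles and siRNA 2 as squares. All 15 circles lie above 0 in the probe set used, while the squares run from -0.91 for HERC5 to 0.78 for IFI27.

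Other genes of the pathway were taken from lists. Of 48 listed interferon-induced genes outside the symbol rule, such as the OAS, GBP and TRIM families, 29 were measured, and 16 of these were above the control with siRNA 1 and 13 with siRNA 2, with medians of 0.04 and 0.00. At 2-fold, OAS1 was higher and TRIM14 lower with siRNA 1, and HELZ2 was higher with siRNA 2. OAS1, which makes the activator of RNase L, read 138 with siRNA 1 and 115 with siRNA 2, against 64.0 in the control; its 2 other measured probe sets differed by 0.12 to 1.03 and by 0.28 to 0.49. HELZ2, a helicase, read 126 with siRNA 1 and 226 with siRNA 2, against 88.7 in the control. TRIM14, an adaptor of antiviral signalling, read 209 with siRNA 1 and 401 with siRNA 2, against 503 in the control, with -1.19 and -0.34 in its other probe set. The median of 0.33 in the induced set with siRNA 1 was therefore not shared by this list. Of 11 further receptors and regulators, among them the PIAS inhibitors and the PTPN phosphatases, 10 were measured, and 0 reached 2-fold. With siRNA 1 they lay between -0.48 and 0.42 (median 0.12), and siRNA 2 gave values between -0.58 and 0.41 (median 0.02).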

How the data were processed

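The deposited table held intensities of 49388 probe sets on a linear scale, 1 column for each of 3 arrays. GCOS 1.4 is named per the submitters' processing notes; background correction, summarisation and normalization are not given in the sources used here. Sorted log2 intensities of the deposited columns differed by at most 0.10, so no further normalization was applied. If the columns were brought to 1 distribution before deposit, a shift of most transcripts would not be seen. Gene symbols came from the platform annotation: 44988 probe sets had 1 symbol, 1831 several and 2569 none, and 44961 matched RefSeq by Entrez identifier. Each gene was read from its brightest probe set (mean of log2 values). Values below 26.0, the median of all values, were raised to it. Genes named were those at least 1.5-fold from the control in either siRNA library, a fixed set of receptors, kinases and IRF, SOCS and induced genes, and other pathway genes at 2-fold. The members, sets and lists were chosen with earlier results of these data known. Planned counts of genes on 1 side of the control in both libraries are not reported, since both comparisons share the control array. Alternatives changed the floor, the probe set, the normalization, the summary, the sets and the fold. Python 3.11.15, pandas 2.3.3, numpy 2.4.6 and matplotlib 3.10.9 were used, and the functions were tested on simulated data.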

Additional observations from a re-analysis of the deposited data

How the results depend on the processing

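A set median counted as moved where it changed by 0.1 or more, and a count where it changed by more than 1.5 times; 67 of 84 recomputed values did neither, 17 moved and 0 changed sign past 0.1. With only probe sets whose names carry no suffix for shared targets, which left 5 induced and 8 signalling genes, the induced median with siRNA 1 was 0.81, its excess over the signalling set 0.58, the signalling median with siRNA 2 0.42 and the excess with siRNA 2 -0.24. With the floor at the 75th percentile, which left 27 members, the signalling median with siRNA 1 was 0.30, the excess with siRNA 2 -0.14, and 2 members were 2-fold higher with siRNA 1. Averaging all probe sets of a gene gave 2 such members and a signalling median of 0 with siRNA 2. Means in place of medians gave 0.25 for the signalling set with siRNA 2 and an excess of -0.17. The excess of the induced set with siRNA 1 was above 0 under every alternative run (0.08 to 0.58), whereas with siRNA 2 it ran from -0.24 to 0.04. At 1.5-fold, 10 members were higher and 1 lower with siRNA 1, and 7 higher and 2 lower with siRNA 2; at 3-fold 0 were higher with either siRNA. The planned counts of genes on 1 side of the control in both libraries were not run. No paired analysis was possible because each group held 1 array, and for the same reason no array could be left out. Values near the floor (JAK1, IRF1, JAK3 and IFI30) are limited by signal over background. The cause of these changes was not tested beyond the number of genes given.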

Other observations

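USP18, the protease that removes ISG15 and restrains IFNAR2, was covered only by a probe set annotated to 5 genes, and was therefore given no value above. That probe set read 91.9 with siRNA 1 and 74.4 with siRNA 2, against 97.1 in the control, differences of -0.08 and -0.38, and how much of its signal came from USP18 is not known.

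Some genes with control values below the floor are given here by their values alone. IFI44L, which neighbours IFI44 on chromosome 1, read 22.9 with siRNA 1 and 16.7 with siRNA 2, against 14.2 in the control. PARP14, the partner of PARP9, read 25.5 with siRNA 1 and 16.3 with siRNA 2, against 15.3 in the control. RSAD2, or viperin, an interferon-induced gene outside the symbol rule, was above the floor only with siRNA 1, at 50.4 against 16.5 with siRNA 2 and 15.5 in the control, at least 1.94-fold higher than the control; its other measured probe set differed by at least 0.45. MX1 read 11.8 with siRNA 1 and 11.8 with siRNA 2, against 8.75 in the control. These genes were singled out after their values were seen, and values below the floor have no order.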
